A study of Cyanidioschyzon merolae with 75 samples.

Results

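The 73 genes described here are those whose RNA followed a daily wave with a fitted peak from 4.5 to under 9 h in a synchronised culture of Cyanidioschyzon merolae 10D. This strain is a unicellular red alga. They were chosen from 4576 genes on the array by their measured values. A 24 h cosine was fitted to the log2 ratio of each gene at 25 times. Genes were kept where the peak of that curve stood at least 1 log2 unit (2-fold) above its trough, where R2 was at least 0.4 and where the peak lay inside the window. R2 is the share of the variance over time that the fitted wave takes up. The window held 78 such genes, 1.7% of all genes, and 5 of the 8 genes that the rule leaves out by name lay inside it. At any fitted peak time 239 genes met both minimums, 5.22% of all genes. Of these, 43 peaked at 22 to under 4.5 h and 60 at 9 to under 13 h.

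Cells of one strain were set in step by cycles of light and dark and sampled every 2 h over 2 cell cycles, at 2 to 50 h. The RNA of each sampling time carried the dye Cy3, and a mixture of the samples, the pool, carried Cy5 on every array. The groups are thus the sampling times, with 26 to 48 h taken as the second cycle and 2 to 24 h as the first. All share the strain, the growth in light and dark and the same dye order. Cyanidioschyzon merolae has a single nucleus, mitochondrion and plastid per cell, and all 3 divide in a fixed order once per cell cycle. Cells grown in light and dark grow by photosynthesis in the light and mostly divide in the dark. Genes are given by locus tag, because the reference gene table gives no other name for any of the 72 that it lists, and no function is stated for any of them.

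The third deposited series equalled the mean of the other 2 within 0.01% at 24 of 24 times compared, so it adds no sample, and the values below are those of the third series. Log2 ratios of the other 2 series differed from each other with an SD of 0.04 to 0.12 over probes. The labels do not say whether these came from separate cultures or are repeat readings, and each time is counted as 1 sample. The SD of a gene between them had a median of 0.05 on the log2 scale over the 73 genes. Errors below are standard errors of a fit over the times, and no replicate culture enters them. Values are log2 of Cy3 over Cy5 minus the array median, so 0 is the median gene of that array. In a culture of many cells, fewer cells with a transcript and less of it per cell cannot be told apart. Arrays at 2, 4, 6 and 26 h were brighter than the others, with median Cy5 intensities of 12093 to 14416 against 552 to 4668 on the other 21. The arrays at 46 and 48 h had the widest spread over genes, with an SD of 0.62 and 0.55, against 0.23 to 0.47 elsewhere.

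The fitted peak-to-trough of the 73 genes ran from 1.02 to 2.81 with a median of 1.59, which is 3.003-fold. Over all genes the median was 0.24. In 16 of the 73 genes it was at least 2, that is 4-fold or more. The standard error of the peak-to-trough had a median of 0.29. Peaks lay between 4.61 and 8.82 h with a median of 6.10 h and a median standard error of 0.69 h. The fitted peak fell at 4.5 to under 6 h in 32 genes, at 6 to under 7.5 h in 34 and at 7.5 to under 9 h in 7. With errors of that size, neighbouring peak times among these genes are not resolved. These are the values that chose the genes, so they are given with no test.

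The measured course was closer to a plateau and a trough than to a single crest. The median of the 73 genes stayed between 0.12 and 0.35 at 2 to 10 h. It was -0.54 at 12 h and then between -1.19 and -0.83 at 14 to 22 h. At 24 to 36 h it lay between -0.16 and 0.42, and at 38 to 48 h between -1.60 and -0.94. At 50 h, the last time, it stood at -0.26. High and low stretches therefore alternated, with the drop near 10 to 14 h in the first cycle and at 38 h in the second.

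**Figure D1:**
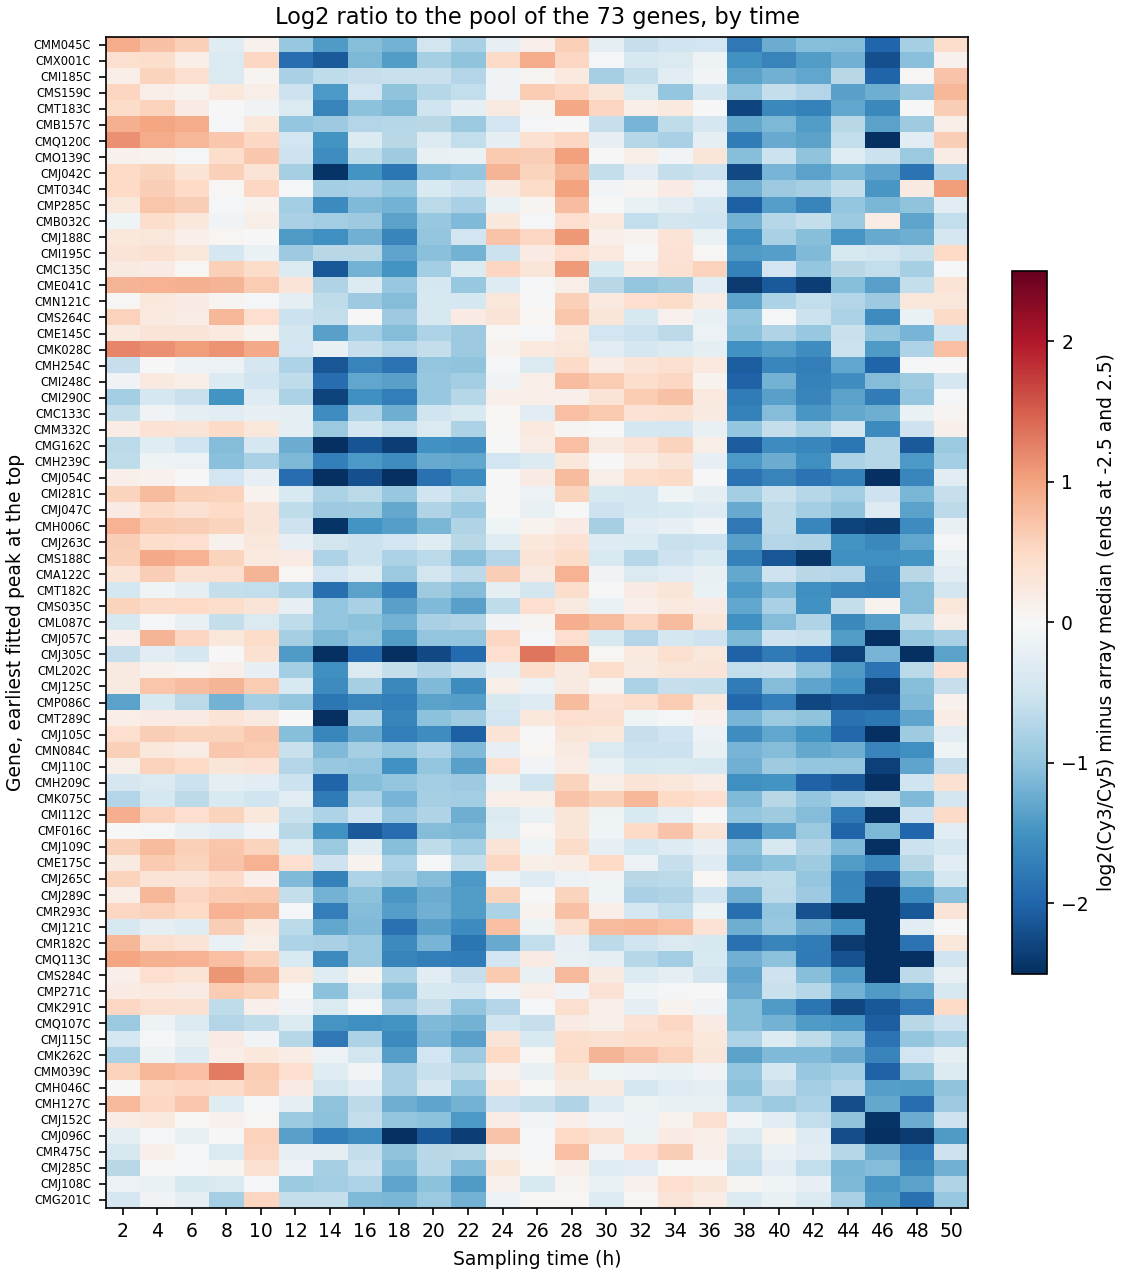
Log2 ratio to the pool of each of the 73 genes (rows, earliest fitted peak at the top) at the 25 sampling times (columns, in h), with red above and blue below the array median. Blue blocks fill most rows over 14 to 22 h and again over 38 to 48 h, and the left edge of the second block stands at 38 h in nearly every row.

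The steps between neighbouring times were sharp in places. At 38 h the value was below that at 36 h in 73 of 73 genes, by a median of -1.26, which is the largest median step in the series in size. Of all genes, 53.6% were lower at 38 h than at 36 h, with a median step of -0.02. The first cycle spread its drop over more than one step. The value at 12 h was below that at 10 h in 71 genes, by a median of -0.75. The value at 14 h was below that at 12 h in 67, by a median of -0.68. Over all genes 47.1% were lower at 12 h than at 10 h, and 51.5% lower at 14 h than at 12 h. Values at 24 h were above those at 22 h in all 73 genes by a median of 0.84, and in 54.1% of all genes. Values at 50 h were above those at 48 h in all 73 by a median of 0.77, and in 47.7% of all genes.

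The stretches were also compared without averaging. In 64 of the 73 genes every value at 14 to 22 h lay below every value at 2 to 10 h, as it did in 8.26% of all genes. In 46 genes every value at 38 to 48 h lay below every value at 24 to 36 h, against 2.43% of all genes, and 41 genes showed both. The stretches were drawn after the values had been seen, and the rule used the same values, so these counts describe the shape only. The lowest of the 25 values came at 46 h in 35 genes and at 14 h in 14, against 17.2% and 4.28% of all genes. The highest came at 28 h in 19 genes and at 2 h in 12, against 3.45% and 1.14% of all genes.

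CMJ305C had the largest peak-to-trough, 2.81 ± 0.52 (SE of the fit over 25 times), or 7.01-fold, with a peak at 6.17 ± 0.69 h. Its lowest, median and highest values were -0.58, -0.26 and 0.37 at 2 to 10 h, and -3.12, -2.25 and -1.93 at 14 to 22 h. They were 0.05, 0.41 and 1.34 at 24 to 36 h, and -3.07, -1.98 and -1.16 at 38 to 48 h. High and low stretches did not overlap in either cycle, and the highest single value came at 26 h. CMJ054C, second in size at 2.75 ± 0.36, lay at -0.48 to 0.12, then -2.65 to -1.57, then -0.01 to 0.80 and then -2.92 to -1.62 over the same 4 stretches. Its stretches did not overlap either.

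CMR293C had a peak-to-trough of 2.61 ± 0.39. Its values were 0.51 to 0.87 at 2 to 10 h, -1.74 to -1.08 at 14 to 22 h, -0.79 to 0.73 at 24 to 36 h and -2.82 to -0.98 at 38 to 48 h. Its values at 24 to 36 h spread wider and reached lower than those at 2 to 10 h, though the later stretch holds more times. The lowest of them, -0.79, came at 24 h, and the next lowest, -0.62, at 34 h. CMQ113C, at 2.37 ± 0.42, ran the same way, with 0.58 to 0.99, -1.75 to -0.92, -0.88 to 0.20 and -2.83 to -1.02. CMH006C, at 2.14 ± 0.39, had 0.31 to 0.86, -2.44 to -0.75, -0.83 to 0.20 and -2.37 to -0.66. In CMH006C the second pair of stretches overlapped, since the value at 40 h was above that at 30 h, and in the other 2 genes they did not.

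CMJ096C departed most visibly from the common course among the 12 genes with the largest waves. It was low at 14 to 22 h, at -2.53 to -1.58, but its values at 38 to 48 h ran from -3.09 to 0.08, so the later stretch held both high and low times. Its fitted peak, 7.79 ± 0.84 h, was the latest of the 12. CMP086C and CMG162C departed in the first cycle. CMP086C was already low at 2 to 10 h, at -1.35 to -0.40, and CMG162C stood at -1.08 to -0.30 there. At 24 to 36 h they reached 0.80 and 0.75. The other 4 of the 12, CMJ105C, CMJ121C, CMT183C and CMJ042C, had peak-to-troughs of 2.46, 2.19, 2.15 and 2.09.

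Genes at the edges of the rule show how narrow its borders were. Just inside the minimum peak-to-trough stood CMM332C at 1.02, and just outside it CMS356C at 0.99. The R2 of CMG201C, the lowest inside, was 0.405, and that of CMI202C, the nearest outside, was 0.399. CMM045C entered the window at 4.61 h and CMJ086C missed it at 4.49 h. At the other end CMG201C peaked at 8.82 h and CMQ241C at 9.15 h.

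The 73 genes had bright spots. Their median spot brightness was at the 94.7 percentile of the array. Genes that met both minimums with a peak at 22 to under 4.5 h stood nearly as high, at the 92.7 percentile. Those with a peak at 9 to under 13 h stood at the 74.4 percentile. Of the 73 genes, 48 were among the 356 whose mean percentile was 90 or more, a set that holds 7.78% of all genes. The 308 other genes of that set had a median peak-to-trough of 0.72 with median centring. Of these, 41.2% had a fitted peak in the same window, against 18.97% of all genes. Their median was -1.28 at 46 h, when that of the 73 genes was -1.60. From 22 to 24 h the median of the 308 rose from -0.40 to 0.30, and that of the 73 genes from -0.94 to 0.02. From 36 to 38 h the median of the 308 fell from -0.19 to -0.53, and that of the 73 genes from -0.09 to -1.29. Loess, which removes from each array the trend of the ratio with brightness, left the median of the 308 other genes between -0.21 and 0.02 at every time. They are most of the 356 brightest genes, so medians near 0 largely follow from the method. The part of brightness in the daily wave of the 73 genes was not tested.

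**Figure D2:**
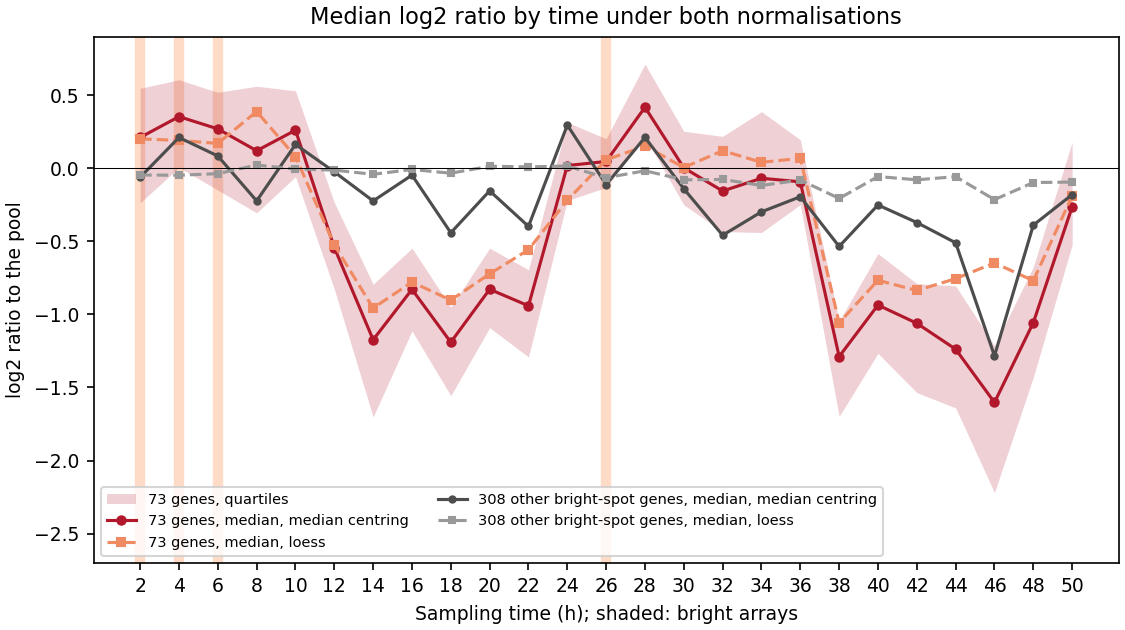
Median log2 ratio to the pool by sampling time (h) for the 73 genes (red, band from the lower to the upper quartile) and the 308 other genes with bright spots (grey), with median centring (solid) and with loess (dashed), and with the bright arrays shaded. The red solid line drops to -1.29 at 38 h and the red dashed line to -1.06, while the grey dashed line stays near 0.

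With loess, 38 of the 73 genes still met the whole rule, and 44 met both minimums at some peak time. Their median peak-to-trough was 1.24, with values between 0.63 and 2.57, and it was larger than with median centring in 3 of the 73. The trough remained in the medians, which were -0.96 to -0.52 at 12 to 22 h and -1.06 to -0.65 at 38 to 48 h. All 73 genes were again lower at 38 h than at 36 h, by a median of -0.99. Every value at 14 to 22 h lay below every value at 2 to 10 h in 54 genes with loess (7.95% of all genes), and every value at 38 to 48 h below every value at 24 to 36 h in 24 (1.05% of all genes). The rise at 24 h was less general, with 55 of 73 genes above their value at 22 h and a median step of 0.40 over the 73. Of the 25 genes below the 90 percentile of brightness 20 kept the rule, and of the 48 at or above it 18 did.

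**Figure D3:**
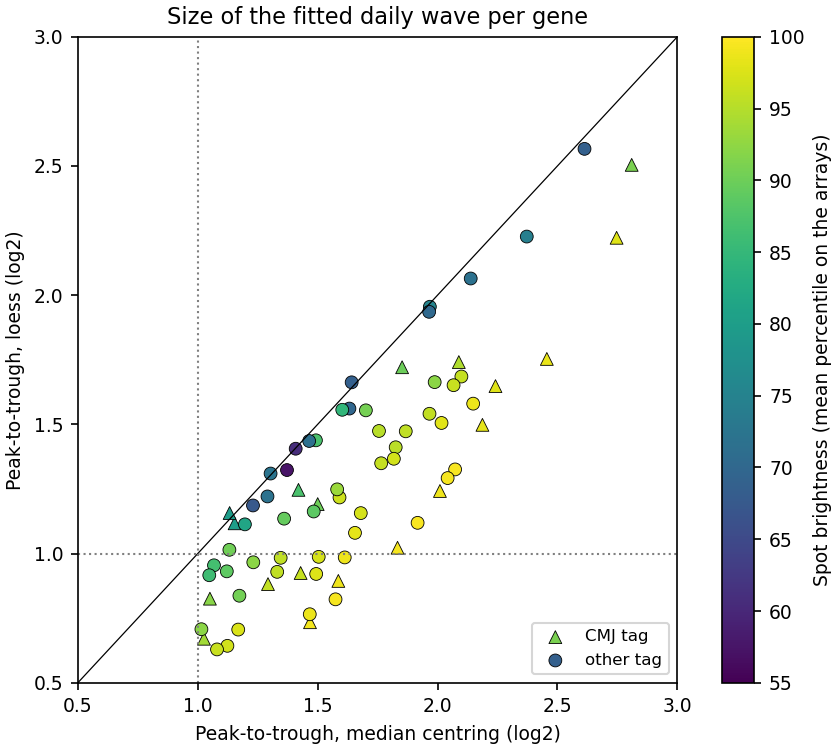
Fitted peak-to-trough (log2) of each of the 73 genes with median centring (x axis) and with loess (y axis), coloured by spot brightness, with triangles for CMJ tags, a line of equality and dotted lines at the minimum of 1. Genes with dimmer spots lie near the line and those with the brightest spots below it.

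A core of 32 genes met the rule under each of 6 other treatments of the data, namely loess, no bright arrays, the authors' log2 values, arrays scaled to one spread, normexp background correction, and no arrays at 46 and 48 h. By peak-to-trough it is led by CMJ305C, CMJ054C, CMR293C, CMJ105C, CMQ113C, CMJ121C, CMH006C and CMR182C. CMR293C, CMQ113C and CMH006C had spots at the 68.7, 74.2 and 71.9 percentile, and loess changed their peak-to-troughs to 2.57, 2.23 and 2.06. CMJ105C and CMJ121C, at the 98.5 and 98.2 percentile, had 1.753 and 1.498 with loess. CMF016C and CMT289C, also among the 32, had 1.97 each with median centring and 1.96 and 1.94 with loess.

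Tags of the genes were not spread evenly over the genome. The tags start with letters for the chromosome, and 19 of the 73 genes carried the prefix CMJ, for chromosome 10. The array held 230 CMJ genes, which is 5.03% of all genes, and 8.26% of them were among the 73. In the 19 other prefixes with at least 50 genes the highest such share was 3.09%. With loess, 12 of the 41 genes that met the rule had CMJ tags.

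The other CMJ genes also ran low in the first trough. The 211 that are not among the 73 had a median of -0.30 at 12 to 22 h, against -0.02 to 0.05 in the 19 other prefixes. With loess it was -0.26, against -0.02 to 0.03. Values were below the array median at every time from 12 to 22 h in 56.4% of these 211 genes and in 11.1% of the genes with other tags. The second cycle differed, with a median of -0.01 at 38 to 42 h and -0.27 at 44 to 48 h. A lower ratio was thus common among genes of this prefix at times when the 19 genes were low too. Neither the position of the spots on the array nor the copy number of the chromosome was analysed here.

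**Figure D4:**
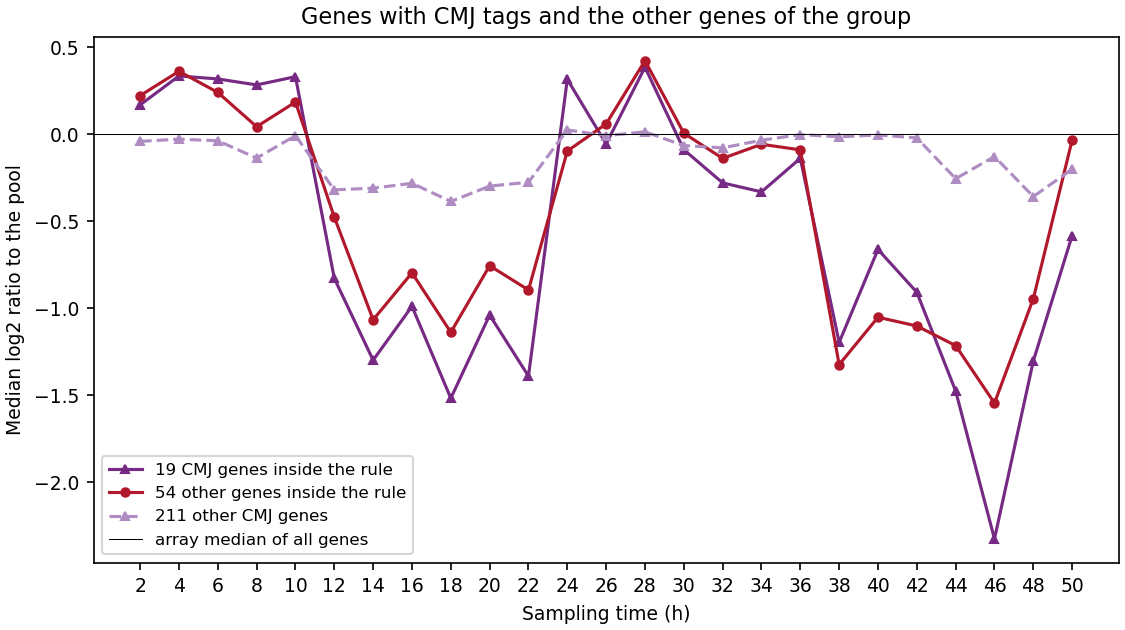
Median log2 ratio to the pool by sampling time (h) for the 19 CMJ genes among the 73 (purple triangles), the 54 others among the 73 (red circles) and the 211 remaining CMJ genes (light purple, dashed). The dashed line lies near -0.30 at 12 to 22 h and near 0 at 38 to 42 h, while both solid lines are low in both stretches.

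When the median of the remaining genes of the same prefix was subtracted at each time, 14 of the 19 and 67 of all 73 still met the rule, a check chosen after the data had been seen. The 19 had a median peak-to-trough of 1.40 after the subtraction, and the 54 genes with other tags 1.60. Since the subtraction was made on the values that chose the genes, it is a description, and the part of the shared course in the wave of the 19 was not tested beyond it. At 12 to 22 h the median of the 19 was -1.11 and that of the other 54 was -0.83. At 38 to 42 h the order turned, with -0.91 in the 19 and -1.18 in the 54, and at 44 to 48 h it turned back, with -1.47 in the 19 and -1.23 in the 54. At 12 h, the start of the first trough, the 19 stood at -0.83 and the 54 at -0.48. Spots of 15 of the 19 were among the brightest.

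Some of the genes lie next to each other in the reference gene order. CMT182C and CMT183C are neighbours, with peak-to-troughs of 1.61 and 2.15 and a correlation over the 25 times of 0.87. The neighbours CMJ109C and CMJ110C had 1.43 and 1.59 and a correlation of 0.94. CMJ263C and CMJ265C had 1.15 and 1.42 and a correlation of 0.77, and CMJ108C and CMJ109C had 1.05 and 1.43 and a correlation of 0.58. With loess the correlations of these pairs, in the same order, were 0.73, 0.79, 0.69 and 0.31. Peak-to-troughs with loess were under 1 in CMT182C, CMJ108C, CMJ109C and CMJ110C, and above 1 in CMT183C, CMJ263C and CMJ265C. For scale, the median correlation over all pairs of the 73 genes was 0.70, with a range of 0.08 to 0.98, and with loess it was 0.57. Points of a correlation share their arrays and the rule fixed the timing, so these are descriptions. The coding length of the 72 genes found in the reference table had a median of 886.5 bases, against 1287 bases over the 4565 genes found.

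The level of the second cycle was set against that of the first by 12 differences between times 24 h apart. The rule did not select on this difference, but its minimum R2, computed over the same values, limits how large it can be. It was lower in 14 of the 73 genes, 19.2%, and higher in 0 by limma's moderated test with a Benjamini-Hochberg adjusted p under 0.05 over all genes and a 1.5-fold minimum. Of all genes, 1.97% were lower and 0.0656% higher. At an unadjusted p under 0.05, limma had 31 of the 73 lower and 3 higher, against 10.8% and 5% of all genes. The mean difference over the 73 genes ran from -1.11 to 0.55 with a median of -0.24, while over all genes the median was 0.01. The spread between the genes was thus wide, with 48 below 0 and 25 above, while 47.2% of all genes were below 0. With loess the median difference over the 73 genes was -0.04.

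CME041C fell most, by 1.11 ± 0.15 on the log2 scale (SE over 12 differences, limma adjusted p = 5.58e-04), with the second cycle lower in 12 of 12 pairs. Its second cycle averaged -1.05 ± 0.86, against 0.06 ± 0.75 in its first (SD over 12 times). CMS188C averaged -1.004 ± 0.930 in the second cycle against -0.10 ± 0.73 in the first, a fall in 12 of 12 pairs with a difference of -0.91 ± 0.12 (limma adjusted p = 5.17e-04). CMK028C averaged -0.66 ± 0.66 in the second cycle against 0.17 ± 0.85 in the first, with a difference of -0.84 ± 0.14 and 10 of 12 pairs lower (limma adjusted p = 0.00299). In CMK028C the values at 24 to 36 h, -0.43 to 0.29, were all below those at 2 to 10 h, 0.94 to 1.22.

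CME175C fell by 0.76 ± 0.13 (12 of 12 pairs, limma adjusted p = 0.00308), and CMS284C by 0.80 ± 0.17 (11 of 12 pairs, limma adjusted p = 0.0119). CMQ113C fell by 0.78 ± 0.19 in 11 of 12 pairs (limma adjusted p = 0.0262). The call of CMQ113C was lost when 4, 6, 8, 10 or 22 h was left out with its matched time, with differences between -0.75 and -0.72, and also without the bright arrays (-0.71) and without 46 and 48 h (-0.62). The other 8 genes called lower were CMM039C, CMQ120C, CMR182C, CMR293C, CMK291C, CMJ263C, CMB157C and CMJ125C, with differences between -0.74 and -0.59.

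The count of lower genes moved with the treatment of the arrays. With loess 6 of the 73 genes were called lower and 1 higher, when 0.896% and 0.262% of all genes were. The 6 were CME041C, CMS188C, CMK028C, CMQ113C, CME175C and CMR293C, and the higher one, named after its value was seen, was CMQ107C at 0.70. Without the wide arrays at 46 and 48 h, 9 were lower and 5 higher, against 1.33% and 0.503% of all genes. The 5, also named after their values were seen, were CMG162C, CMI290C, CMJ054C, CMJ305C and CMK075C, with differences of 0.67 to 0.79. CME041C, CMS188C, CMK028C and CME175C kept their call in each of the 35 other fits made.

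**Figure D5:**
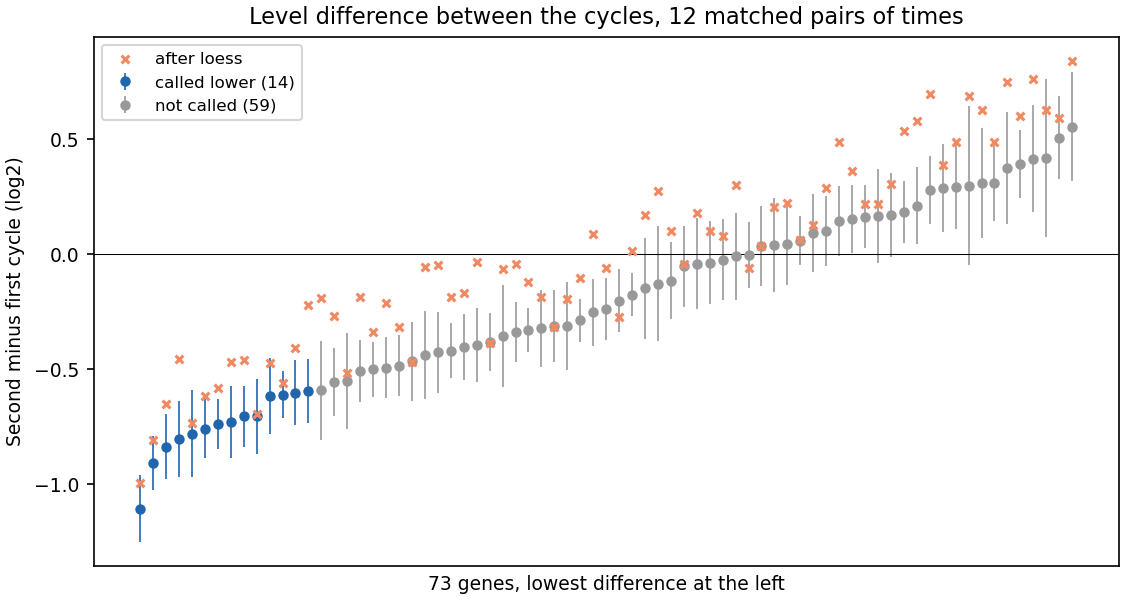
Mean of 12 differences between the second and the first cycle (log2) for each of the 73 genes, with its standard error, blue where called lower and grey where not, and crosses for the same difference with loess. The 14 blue points lie between -1.11 and -0.59, and most crosses lie above their points.

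The differences were not alike at all hours. At 48 h against 24 h the second cycle was lower in 70 of the 73 genes, by a median of -1.10. At 46 h against 22 h it was lower in 62, by -0.77, and at 44 h against 20 h in 60, by -0.39. With loess these counts were 60, 40 and 39. Of all genes, 53.6%, 54.96% and 53.4% were lower at these pairs, in the same order. The median of the 308 other bright-spot genes fell too, from 0.30 at 24 h to -0.39 at 48 h. It also fell from -0.40 at 22 h to -1.28 at 46 h, and from -0.15 at 20 h to -0.51 at 44 h. The part of brightness in these differences was not tested. For the 73 genes the opposite held at 36 h against 12 h, where 60 were higher in the second cycle by a median of 0.41, and 61 with loess. There 53.5% of all genes were lower, and the 308 other bright-spot genes had medians of -0.19 at 36 h and -0.02 at 12 h. At 36 h against 12 h the 19 CMJ genes were higher in 17 cases by a median of 0.93, and the other 54 in 43 cases by 0.39. At the other 8 pairs of times between 29 and 47 genes were lower, against 50.1% to 54.9% of all genes.

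The size and time of the wave were compared between the cycles by limma's moderated F-test. It called 1 of the 73 genes, 1.37%, and 0.721% of all genes at an adjusted p under 0.05. The rule's minimum R2 limits such a change, so nothing is read from the count. The gene was CMP086C, whose wave was 3.22 in the second cycle against 1.00 in the first, a difference of 2.22 (limma adjusted p = 0.0176). Its second cycle spanned 0.80 at 28 h to -2.27 at 42 h, and at 2 to 22 h it stayed between -1.81 and -0.40. With loess it called 8 of the 73 genes, CMP086C among them, and 2.36% of all genes. Without 46 and 48 h it called 2, CMP086C and CMH209C, and 1.4% of all genes. The call of CMP086C was lost when all arrays were scaled to one spread, with a difference of 2.35. Over all 73 genes the median peak-to-trough was 1.62 in the second cycle against 1.68 in the first, and it was larger in the second in 42 genes, with a median difference of 0.04. With loess it was larger in the second in 37 genes. Without 46 and 48 h the majority turned, with 32 genes larger in the second and a median difference of -0.13.

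The fitted peak was later in the second cycle than in the first in 62 of the 73 genes, with medians of 6.81 h in the second and 5.31 h in the first and a median difference of 1.62 h. With loess it was later in 53 genes, by a median of 1.34 h. With arrays scaled to one spread it was later in 38 genes, by a median of 0.17 h. Without 46 and 48 h it was also later in 38, by 0.04 h. The delay thus stood with loess and nearly vanished under the other 2 treatments. With median centring it was also seen in genes that peaked earlier. At 22 to under 4.5 h the second-cycle peak was later in 32 of 43 genes, with a median difference of 1.43 h. At 9 to under 13 h it was later in 20 of 60, with a median difference of -1.09 h. A 12 h component was added to the wave as a test of 1 kind of departure from the fitted cosine. The rule's minimum R2 limits the size of such a component, and no period under 12 h was fitted. The counts that follow are therefore not read as a result on the plateau and trough. Limma's F-test called 0 of the 73 genes and 0% of all genes, and at an unadjusted p under 0.05 it had 2 of the 73 and 3.37% of all genes. The 2 were CMI112C and CMK291C, with 12 h peak-to-troughs of 0.70 and 0.80.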

How the data were processed

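The labels put each of 75 two-colour arrays at 1 of 25 sampling times in 1 of 3 series. Per the file headers, the authors deposited raw Cy5 and Cy3 intensities, scaled Cy3 intensities, the ratio of scaled Cy3 to Cy5, and a log2 value. The scanner, background handling, genome build and hours of light and dark were not given in the sources used here. Raw intensities of the third series were used. The deposited log2 values served as an alternative, read from the series table because the 48 h file of that series holds the 46 h values in this column.

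Log2(Cy3/Cy5) minus the array median was averaged over the probes of a gene (4586 probes, 4576 genes) with no filter, since the files hold no control spots or background column. None of the 73 genes has a second probe. The number of arrays, 1 per time, limits the precision. Locus tags were matched to the gene table of assembly ASM9120v1, for 4565 genes.

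Least squares gave mean, 24 h cosine and sine. The tests used limma 3.58.1 in R 4.3.3 over all genes. They were tried on simulated data with independent noise per gene and time. Such data hold no effect shared by the genes of an array, so the trial does not cover that case. The p-values rest on scatter between times, each counted as 1 sample. The alternatives were loess, normexp with offset 50, scaled arrays, deposited log2 values, other periods and thresholds, single cycles, times or series left out, and the series as a replicate block. Leaving out 46 and 48 h and subtracting prefix medians were added after seeing the data. The members and lists were chosen with earlier results of these data known. Named genes were the 12 largest waves, up to 6 per direction or test among called genes, the genes nearest each threshold (of 3 per side the nearest is printed) and neighbouring members. Lists by product and searches of promoters were planned and were not run, because no product names or promoters were among the sources used here.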

Additional observations from a re-analysis of the deposited data

Results flagged for a closer look

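CMP086C had a larger daily wave in the second cycle than in the first, 3.22 against 1.00 on the log2 scale, a difference of 2.22 that passed limma's test of the difference between the cycles (adjusted p = 0.0176 over 4576 genes). With each time counted as 1 sample, no replicate culture bears on it. The gene's spot was at the 99.6 percentile of brightness, and with loess its difference was 2.00.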

How the results depend on the processing

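The rule found 73 genes. It found 41 with loess (38 of them among the 73) and 41 at a peak-to-trough of at least 1.5 (all 41 among the 73). In the second cycle alone it found 113 (57 among the 73), and in the first cycle alone 117 (52 among the 73). The second cycle was lower in 14 of the 73 genes (1.97% of all genes), in 6 with loess (0.896%) and in 9 without 46 and 48 h (1.33%). By limma's test it was higher in 0 (0.0656% of all genes), and in 3 at an unadjusted p under 0.05 (5%). It was higher in 1 with loess (0.262% of all genes), 1 with scaled arrays (0.197%) and 5 without 46 and 48 h (0.503%). The change of rhythm was called in 1, in 8 with loess (2.36% of all genes), 4 with normexp (1.46% of all genes), 2 without the bright arrays (0.328% of all genes) and 2 without 46 and 48 h (1.4% of all genes). Leaving out each time in turn gave 64 to 100 genes by the rule (60 to 73 of the 73). Of the 73, 10 to 17 were then lower (1.38% to 2.21% of all genes) and 0 to 3 higher (0.0219% to 0.35%). A changed rhythm was called in 1 to 4 (0.219% to 1.31% of all genes) and a 12 h component in 0 (0%). The 3 higher came without 24 or 48 h (0.35% of all genes). The changed rhythm was called in 2 to 4 genes without 12, 22, 26, 28, 38, 42 or 48 h (0.219% to 1.31% of all genes). The cause was not tested. Of the named level differences, that of CMQ113C lost its call in 12 of 35 fits and that of CMS284C in 1, with loess at -0.46. No named level difference changed sign. Of the 73 genes, 42 had the larger wave in the second cycle, with a median difference of 0.04 against 0.05 over all genes. Without 46 and 48 h, 32 of the 73 did, and their median difference turned to -0.13. The labels do not say that a series number marks a shared culture or day. The differences of series 1 and 2 correlated between times at -0.09 to 0.14, median 0.01. With all arrays and the series as a replicate block, 43 of the 73 genes had a changed rhythm and 15 a 12 h component, against 60.5% and 21.4% of all genes. That fit counts the series as separate samples, though the third is the mean of the others. With no stated hours of light and dark, the times cannot be tied to day or night.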
